A study of Mus musculus with 12 samples.

Results

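The p200 genes, also called HIN-200 genes, are a family of interferon-inducible genes that stand side by side on mouse chromosome 1. The genes described are Ifi202b, Ifi203, Ifi204, Ifi205, Ifi208, Aim2 and Mnda, which were chosen by name and make up 7 of the 24675 genes tested. Mnda is an older name of the gene that the RefSeq table lists as Ifi211 (Entrez gene 381308), and each gene was read by 1 probe set. The cells were macrophages of wild-type mice aged 8 to 10 weeks, raised from bone marrow for 7 days with the growth factor M-CSF, which came from L cell-conditioned medium. The 12 arrays were those of cells given hepcidin for 3 h, PBS for 3 h, hepcidin for 1 h and PBS for 1 h, with 3 arrays in each group. Per the labels, the medium was changed to DMEM alone for 1 h before hepcidin, the peptide hormone that lowers iron export, or its PBS vehicle control was added. The labels give the hepcidin dose as 1 µg/ml in one protocol and 10 µg/ml in another, so the dose is not settled. The labels name no mouse strain. They also do not say whether replicate arrays stand for different mice or culture wells, so each p-value reflects the scatter among these arrays and that scatter may be technical.

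Most p200 proteins join a pyrin domain, which binds other pyrin domains, to a HIN domain, which binds DNA. The family is transcribed in macrophages in response to type I and type II interferons, through interferon-stimulated response elements (ISRE) bound by interferon-activated factors. Aim2 encodes the sensor that meets double-stranded DNA in the cytosol and recruits the adaptor ASC (gene Pycard) and caspase-1 (Casp1) into an inflammasome, which matures interleukin-1 beta. Ifi204 encodes the protein usually compared with human IFI16, a DNA sensor that acts with STING. Ifi202b encodes a protein with HIN domains and no pyrin domain that holds Aim2 back. Ifi205 was cloned as D3, an mRNA induced in macrophages by lipopolysaccharide and interferon.

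Promoter windows are shown because interferons act on the family through its promoters. RefSeq windows of 300 bases, 250 before to 50 after an annotated start (GRCm38.p6), were at hand for 12 of the 13 p200 genes on the array, with 14 windows in all. The ISRE core, searched on both strands as GAAA, any 2 bases and GAAA again, was found in 10 of these 14 windows and in 9 of the 12 genes, against 3.44% of all 32851 windows of the same length. Of the pairs of p200 windows, 6 were at least 90% identical over at least 200 aligned bases, so matches in those windows are not independent. No match was found in the windows of Aim2, Ifi202b and Ifi209. The GAS motif, TTCNNNGAA, was found in 1 of the 14 p200 windows, that of Ifi202b, against 8.3% of all windows. The NF-kB motif was found in 2 of the 14, of Ifi203 and Ifi209, against 8.46%. The AP-1 motif, TGANTCA, was found in 5 of the 14 windows, against 7.81%, and in 3 of the 12 genes, Ifi203, Ifi209 and Mndal. Within a window none of these matches overlapped another. The windows of Ifi203 overlap each other, as do those of Mndal. The AP-1 match in both Ifi203 windows is the same site, counted once in each window. A match describes letters and not a site in use.

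The pairs printed here are Ifi205 with Mnda (Ifi211) and Ifi203 with Mndal, chosen after the values were seen because their aligned bases are nearly identical and each pair holds a gene called at 3 h. All 4 genes lie on the minus strand, and each window is given 5′ to 3′ along the gene, with ISRE and AP-1 matches in capitals. The windows are chr1:174031706-174032005 for Ifi205, chr1:173912997-173913296 for Mnda, chr1:173942443-173942742 for Ifi203 and chr1:173880138-173880437 for Mndal, whose start is that most like the start of Ifi203.
Ifi205: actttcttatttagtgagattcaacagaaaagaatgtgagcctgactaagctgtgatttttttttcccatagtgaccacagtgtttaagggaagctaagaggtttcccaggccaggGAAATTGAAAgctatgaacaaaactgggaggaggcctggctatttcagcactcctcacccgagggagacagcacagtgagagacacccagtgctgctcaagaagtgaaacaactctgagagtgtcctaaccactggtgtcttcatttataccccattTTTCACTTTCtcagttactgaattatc
Mnda (Ifi211): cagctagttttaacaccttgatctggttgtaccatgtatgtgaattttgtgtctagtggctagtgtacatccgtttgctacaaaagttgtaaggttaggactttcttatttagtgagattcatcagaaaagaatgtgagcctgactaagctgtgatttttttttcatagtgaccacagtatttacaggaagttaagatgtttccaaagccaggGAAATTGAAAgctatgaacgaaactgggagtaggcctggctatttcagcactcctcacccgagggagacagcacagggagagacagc
Ifi203: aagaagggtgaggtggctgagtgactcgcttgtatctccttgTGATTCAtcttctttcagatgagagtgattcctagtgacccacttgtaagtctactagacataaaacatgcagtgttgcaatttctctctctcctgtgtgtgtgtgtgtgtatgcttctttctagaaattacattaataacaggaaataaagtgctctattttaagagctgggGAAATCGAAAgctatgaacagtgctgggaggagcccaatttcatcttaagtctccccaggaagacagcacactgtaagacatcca
Mndal: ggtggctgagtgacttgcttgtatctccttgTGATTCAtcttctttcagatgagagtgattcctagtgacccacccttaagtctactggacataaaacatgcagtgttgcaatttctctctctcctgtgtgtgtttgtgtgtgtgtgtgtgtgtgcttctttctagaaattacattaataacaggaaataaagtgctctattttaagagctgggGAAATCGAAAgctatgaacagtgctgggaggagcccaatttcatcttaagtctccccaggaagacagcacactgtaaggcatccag
The Ifi205 and Mnda windows were identical at 189 of 201 aligned bases (94.0%), and both hold the same ISRE match, GAAATTGAAA, which none of the other p200 windows held. Counting the annotated start as 0, it runs from -134 to -125 in Ifi205 and from -37 to -28 in Mnda. The Ifi205 window holds another match on the opposite strand, TTTCACTTTC, from 23 to 32. The Ifi203 and Mndal windows were identical at 282 of 289 aligned bases (97.6%) and share the ISRE match GAAATCGAAA and the AP-1 match TGATTCA.

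**Figure D1:**
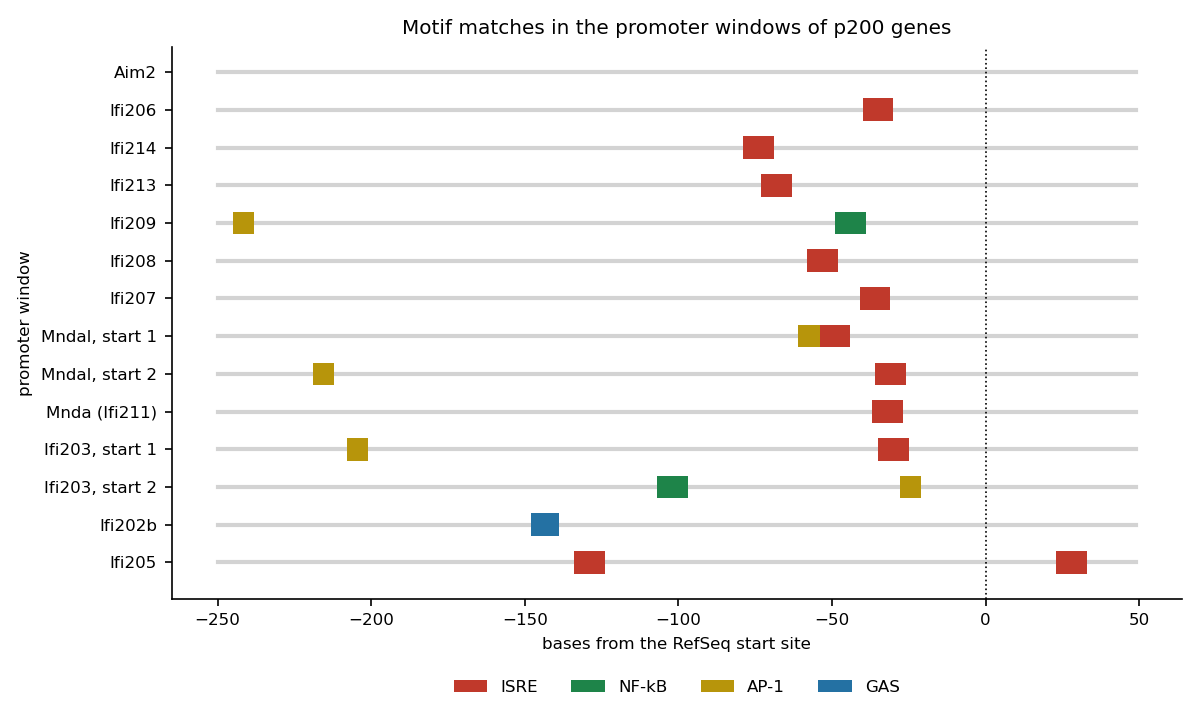
Positions of motif matches in the 14 RefSeq promoter windows of 12 p200 genes, in chromosome order from top to bottom; the x axis is the distance in bases from the annotated start and grey bars are the windows. The forward ISRE match lies at -134 to -125 in Ifi205 and at -37 to -28 in Mnda, and the windows of Aim2, Ifi202b and Ifi209 hold none.

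Expression was read on Affymetrix whole-transcript arrays as 1 log2 value for each gene, with array medians from 4.84 to 4.94 and correlations between arrays of a group from 0.994 to 0.997. A gene was called at an adjusted p under 0.05 in limma, fitted to all 24675 genes. With 3 arrays a group, a difference of hepcidin minus PBS had a median SE of 0.10 on the log2 scale. Of the 7 members, 5 had a mean at or above the median gene mean of 4.87, and 2, Ifi202b and Ifi208, lay below it. The table carries no detection calls, so values below that median were not told apart from background, and differences that begin there may be understated. Macrophage markers were high in all groups, with all 8 on the array above the median. Their summed level, on the log2 scale, was 14.39 to 14.48 in the hepcidin arrays of 3 h and 14.29 to 14.38 in the PBS arrays of 3 h. At 3 h 2 of the 8, Cd14 and Spi1, were called higher, by 0.80 and 0.30, against 2.8% of all genes. Mertk alone was called lower, at -1.08, against 2.53% of all genes. The lists for neutrophils, dendritic cells, lymphocytes and stroma had 0 of 10, 0 of 10, 0 of 9 and 0 of 8 members called with hepcidin at either time. The shares of all genes called were 5.33% at 3 h and 0.559% at 1 h, at which lists this short may hold no call. The summed levels of these lists lay between 7.14 and 8.18 in all groups. By group, 3 or 4 neutrophil, 0 or 1 dendritic and 1 or 2 lymphocyte markers stood at or above the median. Of the stroma markers, 5 did so with hepcidin at 3 h and 3 in each other group.

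At 3 h, hepcidin raised Ifi205 and no other listed member passed the test, so 1 of 7 was called against 5.33% of all genes, and against 2.8% called higher. At an unadjusted p under 0.05 in limma the count was 2 of 7, against 16.9% of all genes. The 7 members had a median log2 difference of 0.04, against 0.02 for all genes tested, with 4 differences above 0 and 3 below. A fall in the number of cells of a type and a fall in RNA per cell cannot be told apart in such bulk RNA.

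Ifi205 (Entrez gene 226695) had log2 values of 6.11, 7.21 and 7.31 with hepcidin at 3 h, against 4.33, 4.53 and 4.42 with PBS at 3 h. All 3 hepcidin arrays lay above all 3 PBS arrays, and the lowest of the hepcidin arrays lay more than 1 unit below the others. The means were 6.87 ± 0.67 with hepcidin and 4.43 ± 0.10 with PBS (SD, n = 3 arrays each), a log2 difference of 2.45 (SE 0.32, 95% interval 1.76 to 3.14, limma adjusted p = 0.000456). By absolute size this difference ranked 16 among the 24675 genes. No fold is given, because the PBS values lie under the median gene mean. With 1 array left out the adjusted p lay between 8.17e-05 and 0.0032.

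Ifi203 (Entrez gene 15950) had log2 values of 9.13, 9.25 and 9.04 with hepcidin at 3 h, against 8.69, 8.97 and 8.59 with PBS at 3 h. The groups did not overlap, as held for 2 of the 7 members, Ifi205 and Ifi203, and for 21.7% of all genes, 11.8% with hepcidin higher. The difference of 0.39 (SE 0.13, 95% interval 0.11 to 0.67) did not pass the test over all genes (limma adjusted p = 0.125), and it passed only without PBS 1 h replicate 2 (adjusted p = 0.0439). Mnda, named after a human protein of myeloid cell nuclei, had log2 values of 10.25, 10.24 and 10.17 with hepcidin at 3 h, against 9.77, 10.18 and 9.85 with PBS at 3 h. Its groups overlapped at 1 array, PBS replicate 2, and the difference was 0.29 (SE 0.15, 95% interval -0.03 to 0.61, limma adjusted p = 0.359).

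The DNA sensor genes of the family were not called. Aim2 (Entrez gene 383619) had log2 values of 8.62, 8.71 and 8.57 with hepcidin at 3 h, against 8.73, 8.70 and 8.67 with PBS at 3 h. These overlap, and all 12 Aim2 values lay between 8.57 and 8.75. The difference was -0.07 (SE 0.06, limma adjusted p = 0.633), with a 95% interval of -0.21 to 0.06. Ifi204 (Entrez gene 15951) had log2 values of 8.04, 8.45 and 8.17 with hepcidin at 3 h, against 8.11, 9.18 and 8.68 with PBS at 3 h. PBS replicate 1 lay among the hepcidin arrays, and the other PBS arrays above them. The difference of -0.44 (SE 0.23, limma adjusted p = 0.374) had a wide interval, -0.94 to 0.06.

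Ifi208 and Ifi202b gave values near the floor of the array in every group. Ifi208 (Entrez gene 100033459), whose older name is Pydc3, had log2 values of 2.77, 3.11 and 3.31 with hepcidin at 3 h, against 2.80, 3.67 and 3.26 with PBS at 3 h. Ifi202b (Entrez gene 26388) had log2 values of 2.69, 2.82 and 2.76 with hepcidin at 3 h, against 2.61, 2.71 and 2.84 with PBS at 3 h. In both genes the groups overlapped, with differences of -0.18 (SE 0.20, limma adjusted p = 0.73) for Ifi208 and 0.04 (SE 0.07, adjusted p = 0.856) for Ifi202b. Only 4.3% of all genes had a lower mean than Ifi202b and 13.3% a lower one than Ifi208.

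**Figure D2:**
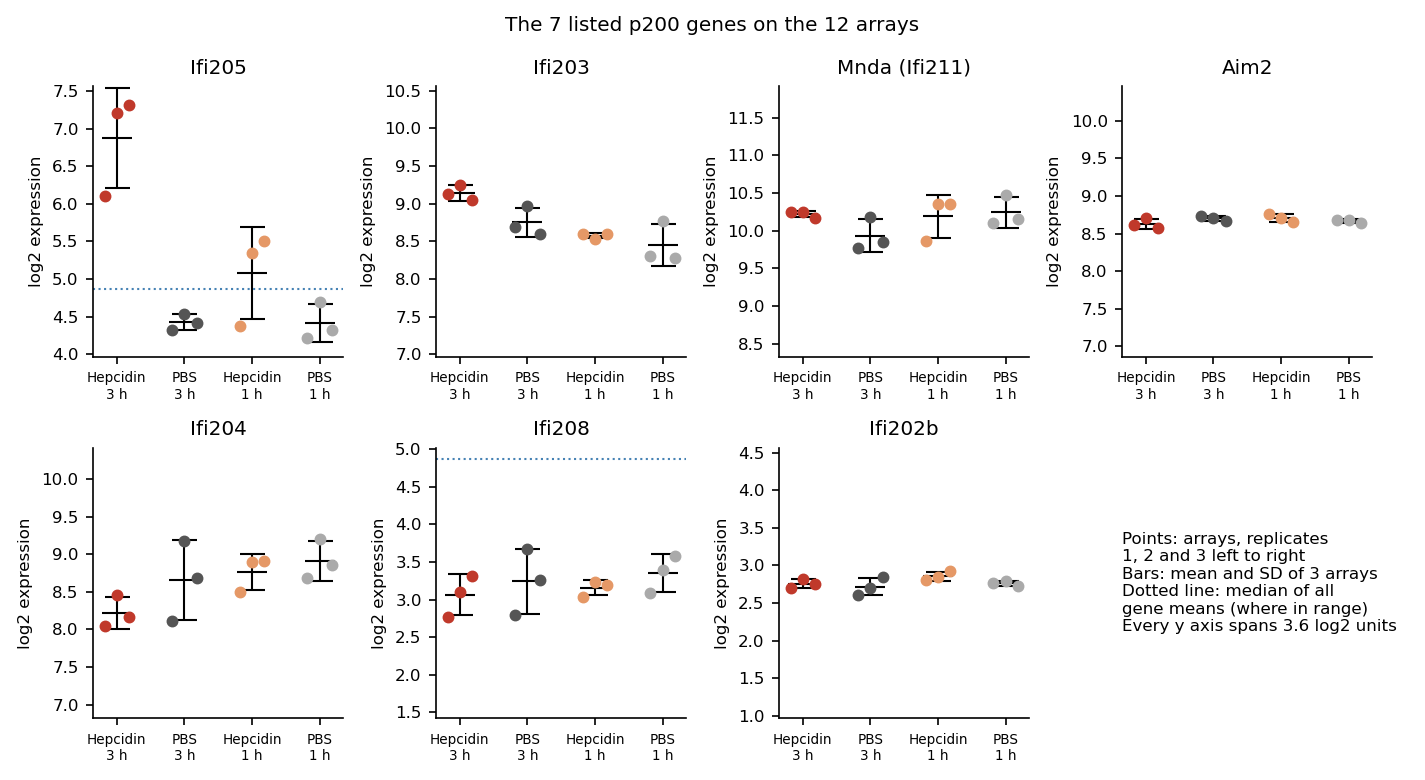
Log2 expression (y axis) of the 7 listed p200 genes in the 4 groups (x axis); points are arrays, bars the mean and SD of 3 arrays, and the dotted line, drawn where in range, is the median of all gene means. Ifi205 stands at 6.11 to 7.31 with hepcidin at 3 h, against 4.33 to 4.53 with PBS at 3 h, while Aim2 lies between 8.57 and 8.75 on all 12 arrays.

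At 1 h none of the 7 members was called, against 0.559% of all genes, and 0 of 7 had an unadjusted p under 0.05 in limma, against 6.82% of all genes. An unmoderated linear model also called 0. Ifi205 had log2 values of 4.38, 5.35 and 5.51 with hepcidin at 1 h, against 4.22, 4.70 and 4.32 with PBS at 1 h. Replicates 2 and 3 of hepcidin lay above all PBS arrays, and replicate 1 among them. The difference of 0.67 (SE 0.32, 95% interval -0.03 to 1.36, limma adjusted p = 0.738) ranked 126 among all genes by size and did not pass.

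Ifi203 had log2 values of 8.59, 8.53 and 8.60 with hepcidin at 1 h, against 8.31, 8.78 and 8.28 with PBS at 1 h, a difference of 0.12 (SE 0.13, limma adjusted p = 0.938). Mnda had 9.87, 10.36 and 10.36 with hepcidin at 1 h, against 10.10, 10.48 and 10.16 with PBS at 1 h, a difference of -0.05 (SE 0.15, adjusted p = 0.99). In both genes the groups overlapped. Aim2 differed by 0.04 (SE 0.06), with values of 8.65 to 8.75 under hepcidin and 8.64 to 8.68 under PBS. Ifi204 differed by -0.14 (SE 0.23), with values of 8.49 to 8.91 under hepcidin and 8.68 to 9.20 under PBS. The near-floor genes Ifi208 and Ifi202b differed by -0.20 (SE 0.20) and 0.09 (SE 0.07). Ifi202b was the 1 member whose groups did not overlap at 1 h, against 12.3% of all genes and 6.47% with hepcidin higher, at 2.81 to 2.92 with hepcidin and 2.73 to 2.79 with PBS.

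The change of the hepcidin effect between the times was tested directly. None of the 7 members passed, against 1.03% of all genes, and 1, Ifi205, had an unadjusted p under 0.05 in limma, against 10.1% of all genes. For Ifi205 the difference between hepcidin and PBS was larger at 3 h than at 1 h by 1.78 (SE 0.45, 95% interval 0.80 to 2.76, limma adjusted p = 0.108), which ranked 6 among all genes by absolute size. It passed without hepcidin 3 h replicate 1 (adjusted p = 0.0194), at a difference of 2.17. The other 6 members had differences between -0.30 (Ifi204) and 0.34 (Mnda), with adjusted p of 0.643 or more.

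In PBS none of the 7 members was called between 3 h and 1 h, against 0.45% of all genes, and 1, Ifi203, had an unadjusted p under 0.05 in limma, against 10.6% of all genes. Ifi205 had a mean of 4.43 ± 0.10 in PBS at 3 h and 4.41 ± 0.25 in PBS at 1 h (SD, n = 3 arrays each), a difference of 0.01 (SE 0.32). This SE pools the spread of all groups, including the wider spread of the hepcidin arrays. Ifi203 had 8.75 ± 0.19 in PBS at 3 h and 8.45 ± 0.28 in PBS at 1 h, a difference of 0.30 (SE 0.13, limma adjusted p = 0.437). Mnda had 9.93 ± 0.22 in PBS at 3 h and 10.25 ± 0.20 in PBS at 1 h, a difference of -0.32 (SE 0.15, adjusted p = 0.486). This comparison shares the PBS arrays with the hepcidin comparisons. In the order of group means, Ifi205 was highest with hepcidin at 3 h, followed by hepcidin at 1 h, PBS at 3 h and PBS at 1 h. Only the step between hepcidin at 3 h and hepcidin at 1 h left neighbouring groups that did not overlap, and the other 3 groups overlapped with each other.

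The array holds 6 further p200 genes, Ifi206, Ifi207, Ifi209, Ifi213, Ifi214 and Mndal, matched by symbol or older name. At 3 h hepcidin lowered 1 of these 6, Mndal, against 5.33% of all genes called and 2.53% called lower, and the 6 had a median log2 difference of -0.27. Mndal (Entrez gene 100040462), named for its likeness to Mnda, had log2 values of 8.27, 8.37 and 7.97 with hepcidin at 3 h, against 8.69, 9.23 and 8.69 with PBS at 3 h. The groups did not overlap, as held with hepcidin lower for 9.9% of all genes, and the difference was -0.66 (SE 0.17, 1.59-fold lower, limma adjusted p = 0.0409). The call rests near the threshold. It was lost without any one of PBS 1 h replicate 2, hepcidin 1 h replicates 1, 2 and 3, PBS 3 h replicates 2 and 3 and hepcidin 3 h replicates 1 and 3, with adjusted p for Mndal between 0.0516 and 0.163.

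Ifi207 had log2 values of 10.20, 10.42 and 10.25 with hepcidin at 3 h, against 10.37, 10.74 and 10.66 with PBS at 3 h, a difference of -0.30 (SE 0.10, limma adjusted p = 0.122), and its groups overlapped at PBS replicate 1. It passed without that array (adjusted p = 0.0227). In PBS Ifi207 had 10.37, 10.74 and 10.66 at 3 h, against 10.82, 10.86 and 10.77 at 1 h, without overlap, as held with 3 h lower for 9.04% of all genes, at an adjusted p of 0.429. Ifi209, also known as Pyhin1, had 7.50, 7.79 and 7.22 with hepcidin at 3 h, against 7.57, 8.40 and 8.13 with PBS at 3 h, a difference of -0.53 (SE 0.26, adjusted p = 0.329). In both genes the lowest PBS array lay among the hepcidin arrays. Ifi206, Ifi213 and Ifi214 lay below the median of genes, with means over all arrays of 3.88, 3.35 and 2.86, and differed by -0.03, 0.24 and -0.24 at 3 h. Together 8 of the 13 p200 genes stood at or above the median.

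At 1 h none of these 6 genes was called, against 0.559% of all genes. At an unadjusted p under 0.05 in limma the count was 0 of the 13 p200 genes, against 6.82% of all genes. The differences at 1 h were -0.26 (SE 0.17) for Mndal, -0.42 (SE 0.26) for Ifi209 and -0.12 (SE 0.10) for Ifi207. Mndal had log2 values of 8.49, 8.37 and 8.25 with hepcidin at 1 h, against 8.85, 8.74 and 8.31 with PBS at 1 h. Over all 13 p200 genes at 3 h, 5 differences were above 0 and 8 below. Of the 13, 2 passed in opposite directions, against 5.33% of all genes called.

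**Figure D3:**
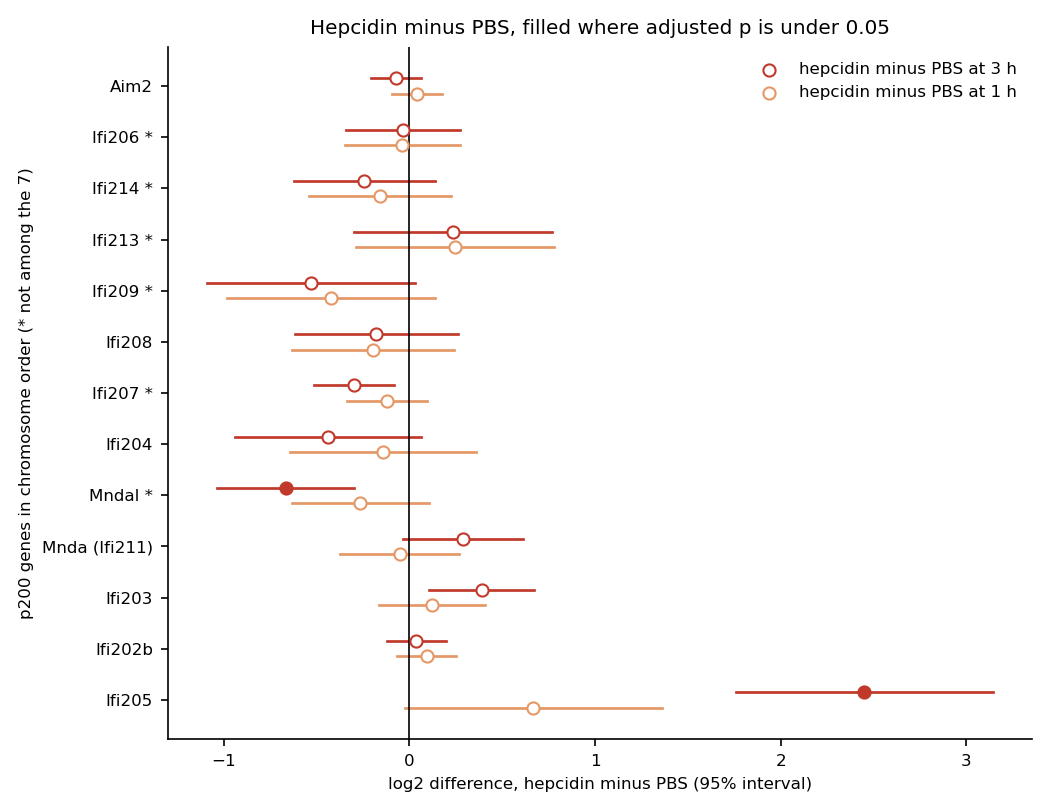
Log2 difference of hepcidin minus PBS (x axis) with 95% intervals from limma for the 13 p200 genes in chromosome order, at 3 h (red) and 1 h (orange); filled points passed at an adjusted p under 0.05. Ifi205 at 2.45 and Mndal at -0.66, both at 3 h, are the filled points.

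Of the 6 window pairs that were at least 90% identical over at least 200 aligned bases, 2 had both genes above the median gene mean, Ifi203 with Mndal and Ifi205 with Mnda. They were chosen after the values were seen and each holds a gene called at 3 h, so their values are a description with no test. Ifi205 passed the median through its hepcidin arrays, since its PBS means of 4.43 and 4.41 lie below it. The other 4 pairs are those among Ifi206, Ifi208 and Ifi213, with log2 differences at 3 h of -0.03, -0.18 and 0.24, and that of Ifi214 with Ifi209, at -0.24 and -0.53, none of them called. For the 2 pairs, values are log2 differences within an array, in which the fixed offset between 2 probe sets cancels between groups. Ifi203 minus Mndal was 0.87, 0.88 and 1.07 with hepcidin at 3 h, against 0.00, -0.26 and -0.10 with PBS at 3 h. These groups lay 1.05 apart and did not overlap. Ifi203 minus Mndal was 0.10, 0.17 and 0.36 with hepcidin at 1 h, against -0.54, 0.04 and -0.03 with PBS at 1 h, a shift of 0.38.

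Ifi205 minus Mnda was -4.14, -3.03 and -2.86 with hepcidin at 3 h, against -5.44, -5.65 and -5.43 with PBS at 3 h, a shift of 2.16. At 1 h it was -5.49, -5.01 and -4.85 with hepcidin, against -5.88, -5.78 and -5.84 with PBS, a shift of 0.72. In all 4 comparisons the hepcidin arrays lay above the PBS arrays. Each pair was written with the gene of the higher hepcidin difference at 3 h first. A positive shift at 3 h was therefore set by that order. How often other pairs of genes lie apart in this way was not tested. Genes alike in sequence may share probes, and how far the probe sets tell these genes apart was not tested.

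**Figure D4:**
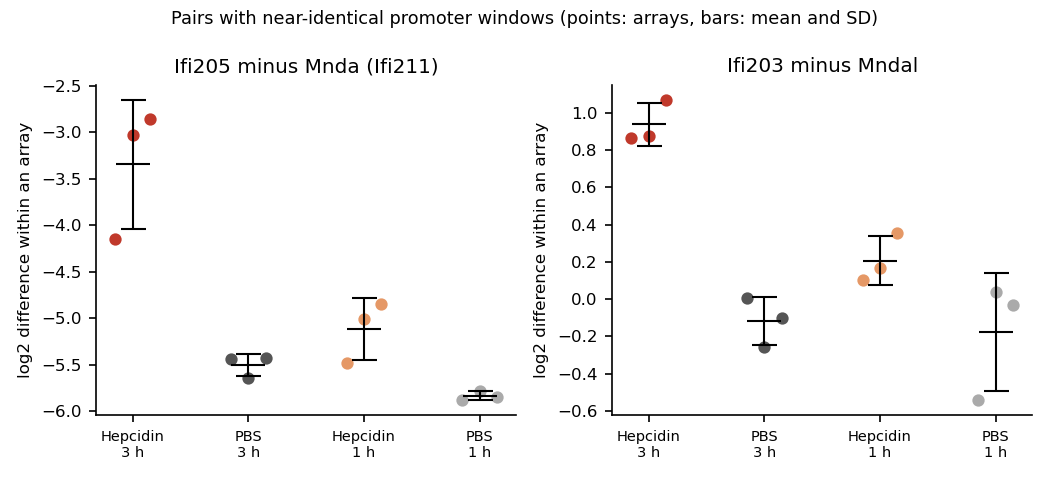
Log2 difference between 2 genes within each array (y axis) in the 4 groups (x axis). The pairs are those whose promoter windows were at least 90% identical over at least 200 aligned bases, with both genes above the median gene mean. Points are arrays and bars the mean and SD of 3 arrays. With hepcidin at 3 h Ifi203 minus Mndal lies at 0.87 to 1.07, against -0.26 to 0.00 with PBS at 3 h, and Ifi205 minus Mnda at -4.14 to -2.86, against -5.65 to -5.43.

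A list of 15 inflammasome genes was described. It holds the Aim2 partners Pycard and Casp1 and also genes of other inflammasome routes, such as Nlrp3 and Casp4. With hepcidin at 3 h 7 of 15 rose, against 2.8% of all genes, and 0 fell, at a median log2 difference of 0.46. At 1 h 3 rose, against 0.527% of all genes, at a median of 0.13. Il1b, the cytokine that the inflammasome matures, rose by 4.12 at 3 h (SE 0.13, limma adjusted p = 5.52e-09) and by 2.96 at 1 h. The sensor gene Nlrp3 rose by 2.09 at 3 h and 1.43 at 1 h, and Casp4, the caspase of the noncanonical pathway, by 1.27 and 0.70. Gbp5, an interferon-induced GTPase gene, rose by 1.86 at 3 h. The adaptor gene Pycard, which Aim2 needs, differed by -0.24 at 3 h (SE 0.09, adjusted p = 0.188), and Casp1 by 0.07 (SE 0.07, adjusted p = 0.677). Aim2, Pycard and Casp1 were therefore not called at 3 h, while Nlrp3 and Il1b were.

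The 13 genes of DNA sensing through cGAS and STING had medians of -0.04 at 3 h and 0.02 at 1 h, and 0 fell. Of them 1 rose at 3 h, against 2.8% of all genes, and 1 at 1 h, against 0.527%. The gene was Ikbke, a kinase gene of the same class as Tbk1, at 1.55 at 3 h (SE 0.11, limma adjusted p = 2.34e-06) and 0.56 at 1 h (adjusted p = 0.0414). The 1 h call of Ikbke was lost without any one of PBS 1 h replicates 1 and 2, hepcidin 1 h replicates 1, 2 and 3, PBS 3 h replicates 1, 2 and 3 and hepcidin 3 h replicates 2 and 3, with adjusted p between 0.0594 and 0.174.

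The interferon genes that drive the p200 family were described as a list of 19 signalling genes, with medians of 0.03 at 3 h and 0.05 at 1 h. Of these, 5 rose at 3 h, against 2.8% of all genes, and 1 at 1 h, against 0.527%. Irf1, a transcription factor of interferon responses, rose by 0.70 at 3 h (SE 0.09, limma adjusted p = 0.000538) and by 1.36 at 1 h (adjusted p = 5.37e-06). Its hepcidin difference was smaller at 3 h than at 1 h, by -0.66 (SE 0.13, adjusted p = 0.0323). At 3 h the kinase gene Jak2 rose by 0.89, the receptor gene Ifngr1 by 0.51 and the kinase gene Tyk2 by 0.44. The type I interferon gene Ifnb1 differed by 0.18 at 3 h (SE 0.09, adjusted p = 0.353), with means of 3.28 with hepcidin and 3.10 with PBS, below the median of genes. The differences at 3 h were -0.40 for Stat2 (adjusted p = 0.173), -0.24 for Irf9 (adjusted p = 0.155) and -0.08 for Irf7 (adjusted p = 0.933). Among 32 interferon-stimulated genes outside the family 5 rose at 3 h and 1 at 1 h, against the same shares of all genes, with medians of 0.05 and -0.0021. Cxcl10, a chemokine gene, rose by 2.95 at 3 h (SE 0.22) and 1.94 at 1 h.

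The other 4 interferon-stimulated genes called at 3 h were Parp14, Ifit1, Rsad2 and Mx2. Parp14, named here after its values were seen, differed by 0.53 (SE 0.09, limma adjusted p = 0.00308). Ifit1 differed by 0.95 (SE 0.22, limma adjusted p = 0.0251), Rsad2 by 0.85 (SE 0.21, adjusted p = 0.0381) and Mx2 by 0.79 (SE 0.21, adjusted p = 0.046), while Isg15 differed by 0.23 (SE 0.13, adjusted p = 0.388). Ifit1 lost its call without PBS 3 h replicate 1 (0.0956) or 3 (0.116) or hepcidin 3 h replicate 1 (0.0737) or 2 (0.0781). Rsad2 lost it for 7 of the 12 arrays left out, PBS 1 h replicate 3, hepcidin 1 h replicate 2, PBS 3 h replicates 1 and 3 and hepcidin 3 h replicates 1, 2 and 3, with adjusted p between 0.0516 and 0.158. Mx2 kept it for only 2 of the 12, PBS 3 h replicate 2 and hepcidin 3 h replicate 1, with adjusted p between 0.0537 and 0.177 for the others. Over all genes 5.33% were called at 3 h and 0.559% at 1 h, or 2.8% called higher at 3 h and 0.527% at 1 h. The lists hold genes picked for their pathway, with earlier results of these data known.

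**Figure D5:**
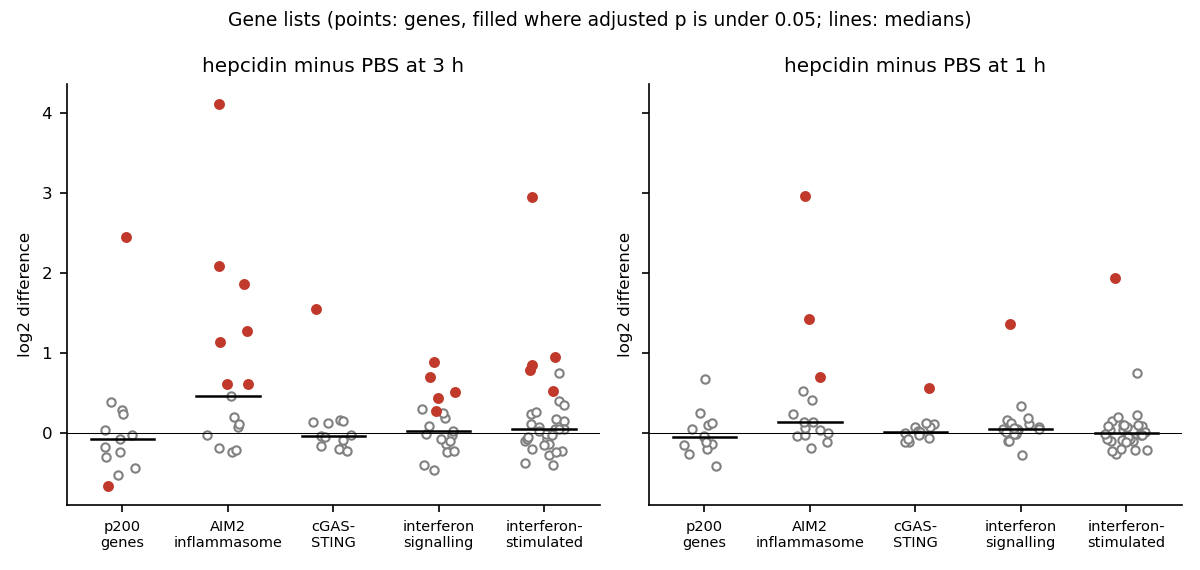
Log2 difference of hepcidin minus PBS (y axis) at 3 h and 1 h for the 13 p200 genes and 4 gene lists (x axis); each point is a gene, filled at an adjusted p under 0.05, and lines are medians. At 3 h the p200 genes have a median of -0.07 with Ifi205 at 2.45, and the inflammasome list has a median of 0.46.

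The genes beside the cluster that were on the array were not called, which does not show where the hepcidin differences stop. The gene table places 15 non-family genes between the p200 genes or among the 5 nearest on each side, and 9 of them were on the array. All 9 stand outside the cluster, since no non-family gene between the p200 genes was on the array. They include the olfactory receptor genes Olfr418, Olfr429, Olfr430, Olfr432 and Olfr433. None of the 9 was called in the hepcidin comparisons or between the PBS groups. Their adjusted p was 0.357 or more in limma, with differences between -0.37 and 0.24. The largest share of all genes called in these comparisons was 5.33%, at which 9 genes may hold no call. Their levels are not given, so genes too low to show a change were not told apart. Whether the hepcidin differences stop at the family was therefore not tested.

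The genes whose pattern over the 12 arrays was most like that of Ifi205 were Hacd3 (Pearson r = 0.974), Riok3 (0.970), Adgrl2 (0.967), Stx6 (0.965) and Tmem134 (0.960), from 11312 genes at or above the median. The correlation is a description over arrays of 4 groups and carries no test. Their hepcidin differences at 3 h were 0.40, 0.39, 0.88, 0.40 and 0.28, well below the 2.45 of Ifi205. That of Tmem134 had an adjusted p of 0.0392 in limma and was lost without any one of PBS 1 h replicates 2 and 3, hepcidin 1 h replicates 2 and 3, PBS 3 h replicates 1, 2 and 3 and hepcidin 3 h replicates 2 and 3.

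The members differed in their spread within groups. The pooled SD of Ifi205 was 0.47, larger than that of 99.6% of all genes, and that of Ifi204 was 0.34, larger than that of 98.0%. For Ifi205 the groups differed in SD, with 0.67 with hepcidin at 3 h and 0.61 at 1 h, against 0.10 and 0.25 with PBS. The limma SE, interval and p of each Ifi205 comparison take the spread as equal in all groups. Aim2 had a pooled SD of 0.05, and 2.6% of all genes had a smaller one. The median over all genes was 0.12. Ifi203 at 0.18 and Mnda at 0.21 stood between, so a log2 difference of a given size was measured less exactly for Ifi205 and Ifi204 than for Aim2.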

How the data were processed

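Per the labels, Trizol-extracted RNA of 12 samples was turned into biotinylated cDNA with the Affymetrix whole transcript kit. The deposited table holds 25429 probe sets, taken as log2 values because the submitters' processing notes name RMA (with Partek, neither with a version), which returns log2, and the range is that of log2; no label states the base or a genome build. Probe sets were named through Entrez IDs with the RefSeq table of GRCm38.p6 (24675 named, 754 not), and no gene was filtered.

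Differences were fitted in R 4.3.3 with limma 3.58.1 (4 group means, 8 residual and 4.11 prior degrees of freedom), with Benjamini-Hochberg adjustment over all genes within each of 4 comparisons. Intervals are 95% intervals from the moderated fit. In data simulated for hepcidin against PBS at 3 h, with 200 of 24675 genes changed, log2 changes of 0.35, 0.7 and 1.4 were recovered in 23.4%, 91.4% and 100% of cases. These shares are over all changed genes. They are not given for genes with a larger SE, such as Ifi204 (0.23) and Ifi205 (0.32). Promoter windows are RefSeq's, aligned with Biopython 1.88. Named were all p200 genes on the array, up to 4 called members of each list with the largest change, a fixed set of interferon and inflammasome genes, neighbours if called and the 5 genes most like a called member. The members and lists were chosen with earlier results of these data known. The alternatives were a replicate block, other priors, moderation, scaling, filters, weights, thresholds and leaving out each array.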

Additional observations from a re-analysis of the deposited data

How the results depend on the processing

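The direction of every p200 difference that passed was the same under all alternatives run. Of the 7 members, 1 was called at 3 h under each alternative except without PBS 1 h replicate 2, where 2 were, so the range with 1 array left out was 1 to 2. The count was 0 at 1 h and 0 between the PBS groups throughout. For the change between times it was 0, but 1 with the replicate block (Ifi205, adjusted p = 0.0214) and 0 to 1 with 1 array left out. The labels do not say whether the replicate numbers of the titles pair the samples, so the main fit held no block. Correlations of deviations from the group means ran from -0.01 to 0.25 between same-numbered arrays, with 9 of 18 over 0.1. Between arrays of different numbers they ran from -0.22 to 0.17, with 1 of 36 over 0.1. In all, 10 of 12 arrays correlated best with their own number, a hint of pairing from the data and not the design. Replicate 1 was the lowest array in all 4 groups for Ifi204, Ifi205, Ifi206 and Ifi208, 4 of 13 p200 genes, as for 4.2% of all genes. Apart from this the block changed no call of a p200 gene. Mndal also lost its call with an unmoderated model (0.118) and with only the groups compared (0.0881). Over all 13 p200 genes the count at 3 h was 2, and 1 with either of these, and 1 to 3 with 1 array left out. Over all genes, the count at 3 h was 1316, but 805 with only the groups compared, 480 at a 1.5-fold minimum and 837 to 1287 with 1 array left out. For the change between times it was 254, but 433 with a trended robust prior, 412 over genes at or above the median and 141 to 234 with 1 array left out. Between the PBS groups it was 111, but 240 with the replicate block, 319 with the trended prior, 332 over genes at or above the median, 285 with array weights, 64 with arrays centred, 42 at the fold minimum, 7 with only the groups compared and 23 to 126 with 1 array left out. At an adjusted p under 0.1 these counts were 391 and 248. The scalings moved the median of all genes by under 0.1. Signal over background limits Ifi202b, Ifi206, Ifi208, Ifi213 and Ifi214 and the PBS values of Ifi205, and 3 arrays a group limit small differences.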
